A study of Mus musculus with 8 samples.

Results

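The untreated state of LLC1 cells is described here from the Cy3 channel of all 8 arrays of the series. LLC1 is the Lewis lung carcinoma line, which came from a lung cancer of a C57BL/6 mouse. On each array the Cy3 dye marked RNA of untreated cells and the Cy5 dye RNA of irradiated ones, taken at 4 h: after a single dose of 2 Gy on 3 arrays, after a single dose of 10 Gy on 2 arrays, and after 5 fractions of 2 Gy, labelled 5x2Gy, on 3 arrays. The Cy3 samples are named below by the regimen and replicate number of their Cy5 partner. Their labels call the replicates biological but do not say whether untreated samples of 1 number came from 1 culture, so the spread between arrays, and p-values measured against it, may be partly technical. Only the untreated channel was used, and no ratio to irradiated cells enters the values. Since untreated RNA carried the same dye on every array, an effect of Cy3 itself is part of each level.

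Each array held 41174 probes and 153 negative control spots. A level is the log2 mean Cy3 signal of a probe minus the log2 median of the negative controls on the same array, so that 0 is the background and 1 is a signal at 2 times it. No background was subtracted, so signal at a level near 0 is mostly background, and differences between weak genes are compressed. A probe was above background where it passed the negative controls by 2.6 robust SD, a level of 0.198 to 0.294 depending on the array. A gene was counted as above background if 1 of its probes passed on all 8 arrays, as not above background if no probe passed on any array, and as mixed otherwise. Levels, and the number of arrays on which a mixed gene passed, are those of its probe with the highest mean, and each gene is given by its lowest, median and highest array. Signals depend on the probe as well as on the RNA, so a higher level of one gene than of another does not show more RNA, and only levels against background and between arrays are read.

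By this rule 10412 of 21121 genes with a symbol were above background on all arrays (49.3%), 7388 were above it on none (35%) and 3321 were mixed (15.7%). The median level was 2.48 over the first group and 0.40 over all genes. A second background came from the 1124 probes of olfactory, vomeronasal and taste receptors, a large set of genes that most cells do not transcribe. Of these 1068 genes 48 passed the negative controls on all arrays. Against the 95th percentile of the receptor probes, 9646 genes (45.7%) were above on all arrays. This level of 0.414 to 0.465 is called the receptor level below, and counts against it are given where they change what a list shows. A gene not above background has only a bound on the signal of its probes, not a measured 0. Of 5931 genes above background on all arrays with more than 1 probe, 2734 had every probe above it. A probe can thus miss a gene that another probe detects, and a gene with 1 probe has no second reading.

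**Figure D1:**
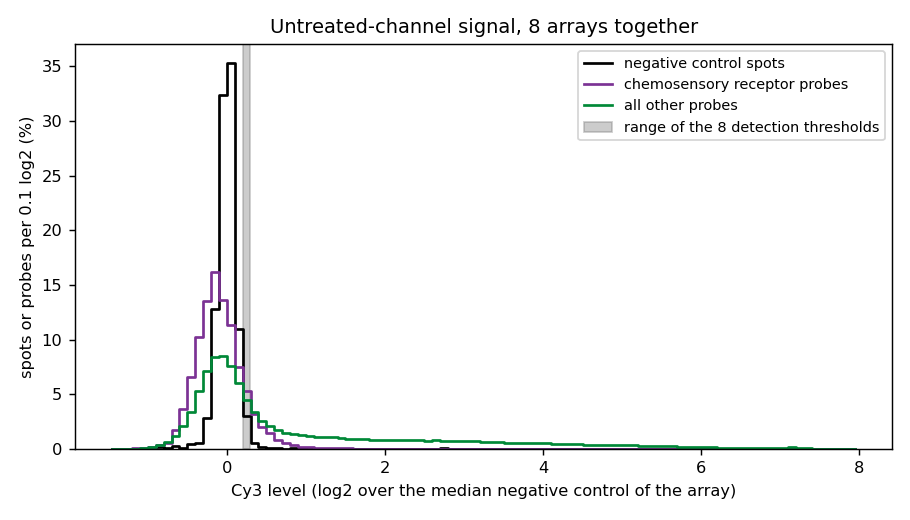
Share of spots or probes (y axis, percent per 0.1 log2) by Cy3 level (x axis, log2 over the median negative control), for negative control spots, chemosensory receptor probes and all other probes, with the 8 arrays pooled. The receptor probes centre below the negative controls, the other probes extend beyond a level of 6, and the grey band spans the detection thresholds of 0.198 to 0.294.

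The untreated samples were alike apart from 1. Over probes, pairs of the other 7 arrays correlated at r = 0.991 to 0.996 (21 pairs), and the array of 10Gy replicate 1 correlated with them at r = 0.981 to 0.989 (7 pairs). The median SD of a gene across arrays was 0.14 log2, and 0.096 after quantile normalization. File headers name 2 scanned images with 4 arrays each, and the 99th percentile of probe levels was 5.58 to 5.94 on image 1 and 6.60 to 6.67 on image 2, so bright probes read lower on image 1. Spots whose median pixel stood at the scanner's ceiling affected 101 genes on at least 1 array and none on every array. Without the array of 10Gy replicate 1, the count of genes above background was 10571.

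Lung epithelium is built from cell types with marker programmes of their own. Alveolar type 2 cells make surfactant under the homeobox factor Nkx2-1, flat alveolar type 1 cells form the gas exchange surface, and the airways are lined by secretory, ciliated, basal and neuroendocrine cells. Carcinoma cells can lose such markers and the junctions that bind epithelial cells together, and take up genes of mesenchymal cells, a change known as the epithelial to mesenchymal transition (EMT). Its best known drivers, the Snail, Zeb and Twist transcription factors, repress junction genes through DNA elements called E-boxes.

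Ribosomal protein and proteasome genes, which any dividing mammalian cell needs, came first as a check of the method. Lists for proliferation and for glycolysis and lactate export were read beside them. All 40 ribosomal protein genes, all 31 proteasome subunits, all 30 proliferation genes and all 18 genes of glycolysis and lactate export were above background on all arrays, against 49.3% of all genes. With flagged spots left out, the ribosomal count was 22 and the others were 29, 30 and 16. In that setting a gene whose spots were all flagged had no value and left the count. Flagged spots included bright ones. By array, the median signal was 8099 to 17230 for flag value 3 and 316.5 to 415.1 for unflagged spots. How much of the lower counts came from genes without a value was not tested. With all spots kept, the median levels of these lists were 6.36, 5.58, 4.54 and 6.12. Mki67, the proliferation antigen Ki-67, ran from 4.48 to 5.09 with a median of 4.78, Top2a, which untangles replicated DNA, from 3.29 to 3.80 with a median of 3.56, and Ccnb1, the mitotic cyclin B1, from 3.94 to 4.67 with a median of 4.36. The glucose transporter Slc2a1 lay between 5.41 and 6.22 (median 5.91), the lactate dehydrogenase subunit Ldha between 5.53 and 7.18 (median 6.64), and hexokinase Hk2 between 4.22 and 4.68 (median 4.39). All of these stood far above background on every array, with the widest range for Ldha, a bright probe. The 30 proliferation genes all stayed above background at the receptor level too.

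**Figure D2:**
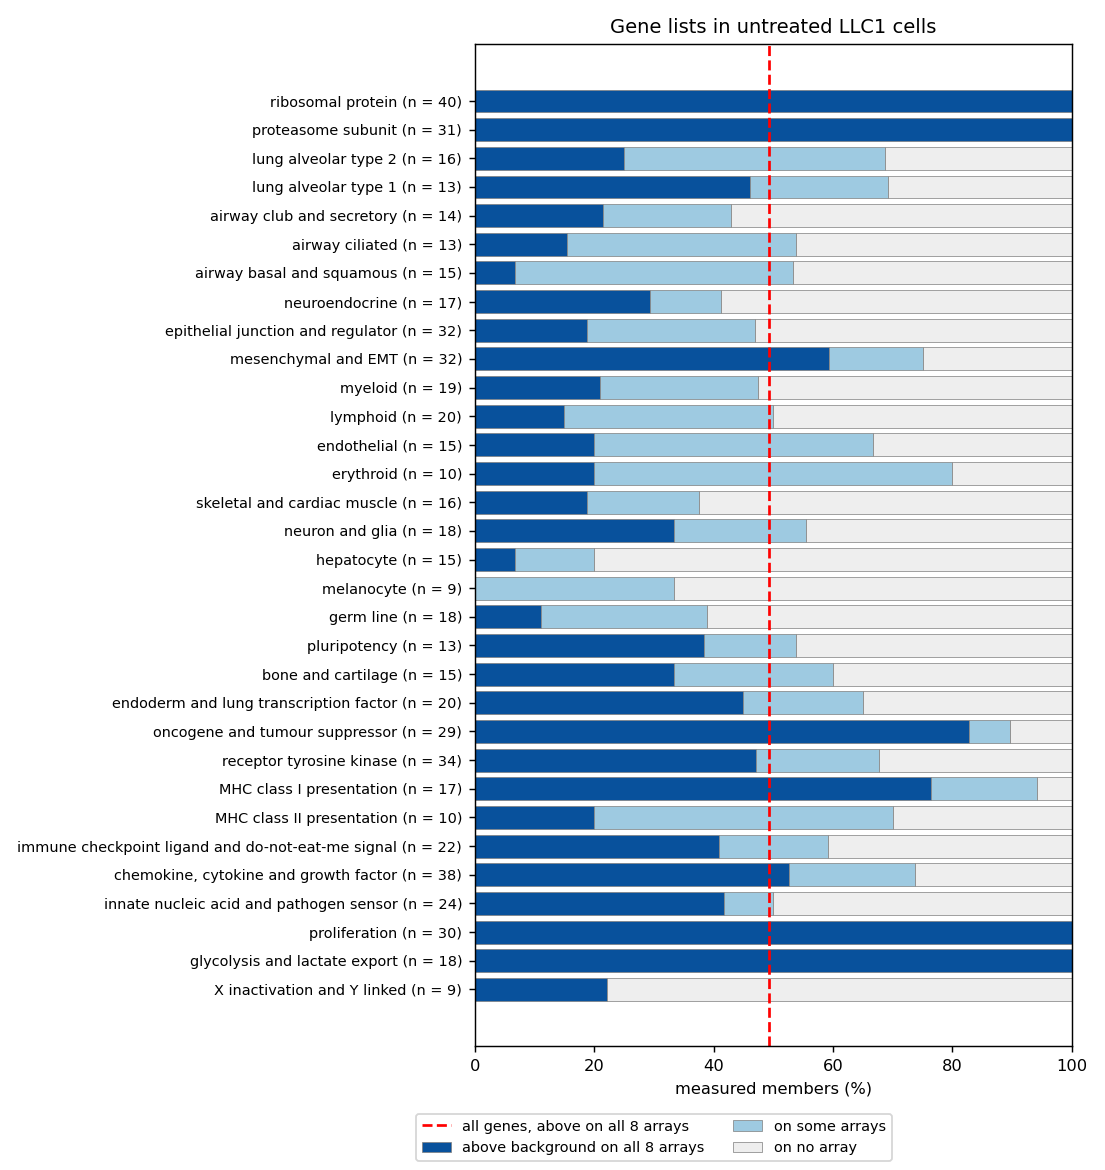
Share of the measured members of each gene list (x axis, percent) that were above background on all 8 arrays, on some arrays or on no array, with the number of members in brackets. The dashed line marks the 49.3% of all genes that were above background on all arrays. Ribosomal, proteasome, proliferation and glycolysis lists reach 100%, the mesenchymal list reaches 59.4% and the epithelial list 18.8%.

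The alveolar type 2 programme was mostly at background. Of its 16 genes 4 were above background on all arrays, 7 were mixed and 5 were not above it, with a median level of 0.13. Nkx2-1, the lung lineage factor, lay between -0.27 and -0.22 (median -0.24) and passed on no array. The surfactant protein genes were likewise at background: Sftpc ranged from -0.03 to 0.30 (median 0.13) and passed on 1 array, Sftpb ranged from 0.15 to 0.41 (median 0.28) and passed on 4, and Sftpa1 and Sftpd passed on none. The lipid transporter Abca3 passed on 3 arrays (0.09 to 0.36, median 0.19), and the aspartic protease Napsa and the phosphate transporter Slc34a2 passed on none. The receptor level was reached on no array by any of these 8 genes.

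The 4 type 2 genes with signal have roles outside these cells as well. They were the lysosomal membrane protein Lamp3 (1.57 to 2.18, median 1.79), the ETS factor Etv5 (1.34 to 1.64, median 1.52), the phospholipid enzyme Lpcat1 (1.92 to 2.33, median 2.15) and the factor Cebpa (0.93 to 1.20, median 1.07). Only 1 of the 4 probes of Lamp3 was above background on all arrays.

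Among 13 alveolar type 1 genes, 6 were above background on all arrays, 3 were mixed and 4 were not above it, with a median of 0.30 and a share of 46.2% against 49.3% of all genes. The receptor Ager, a defining marker, passed on 1 array (0.08 to 0.23, median 0.21), the water channel Aqp5 passed on 7 (-0.30 to 0.58, median 0.35), and the mucin-type protein Pdpn and the tight junction gene Cldn18 passed on none. Hopx, a homeodomain cofactor, was at 2.04 to 2.29 with a median of 2.25. The other members above background were Cav1, which coats caveolae in many cell types (5.36 to 6.44, median 5.79), the angiogenic factor Vegfa (3.03 to 3.47, median 3.17), Rtkn2 (1.75 to 2.19, median 2.00), the membrane protein Emp2 (2.86 to 3.32, median 2.92) and the orphan receptor Gprc5a (3.28 to 3.66). Ager, Aqp5 and Pdpn were thus at or near background while Hopx and Rtkn2, also used as type 1 markers, were not. Cav1, Rtkn2, Emp2 and Gprc5a were picked after their values were seen.

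Airway programmes showed few members with signal. Of 14 club and secretory genes 3 were above background on all arrays, and 1 at the receptor level. Scgb1a1, the secretoglobin that defines club cells, ranged from 0.12 to 0.44 (median 0.25), and Cbr2, a carbonyl reductase, from 0.82 to 1.22 (median 1.11). Scgb3a2 (median 0.37) and the mucin Muc5ac (median 0.54) passed the negative controls on all arrays but the receptor level on some arrays only. Among 13 measured ciliated cell genes 2 were above background, Tppp3 (0.69 to 1.16, median 0.83) and the dynein chain Dnaic1 (0.59 to 0.99, median 0.77), while the ciliary master factor Foxj1 passed on no array.

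Squamous and basal features were at background as well. Of 15 basal and squamous genes 1 was above background, the neurotrophin receptor Ngfr (0.48 to 0.81, median 0.64), 7 were mixed and 7 were not above it. Without the array of 10Gy replicate 1 the count was 2. Trp63, the master factor of basal cells, passed with none of its 4 probes on any array (-0.13 to 0.03, median -0.04), and neither did Sox2 (-0.25 to 0.05, median -0.08). The basal keratins Krt5 and Krt14 passed on 3 and 6 arrays, with medians of 0.23 and 0.43.

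Of 17 neuroendocrine genes 5 were above background on all arrays, 2 were mixed and 10 were not above it. The adhesion molecule Ncam1 reached 2.09 to 2.54 (median 2.19), with 4 of its 8 probes above on all arrays, the ubiquitin hydrolase Uchl1 1.55 to 1.88 (median 1.66) and the homeobox factor Nkx2-2 1.48 to 1.84 (median 1.55). Ddc, of amine synthesis, was just above background at 0.28 to 0.46 (median 0.39). The secretory granule genes were not: Chga passed on no array (median 0.07), Syp on 2 (median 0.13) and Calca on 1 (median 0.18).

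The list of endoderm and lung transcription factors was split, with 9 of 20 above background on all arrays, 4 mixed and 7 not above it, a share of 45.0% against 49.3% of all genes. Foxa2, a pioneer factor of foregut endoderm, ranged from 2.23 to 2.49 (median 2.32), while its relative Foxa1 passed on no array (-0.26 to 0.11, median -0.22). Gata6 ranged from 1.26 to 1.62 (median 1.41) and Gata4 passed on no array (median 0.07). Sox9, active in the distal tips of the developing lung, was at 1.61 to 1.89 (median 1.72). Foxa1 and Foxa2 have 1 probe each. Id2, another gene of the distal lung tip, picked after its values were seen, was at 3.68 to 4.24 (median 3.97).

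Epithelial junction genes and their regulators were rarely detected. Of 32 genes 6 were above background on all arrays (18.8%, against 49.3% of all genes), 9 were mixed and 17 were not above it, with a median level of 0.13. At the receptor level 4 were above on all arrays. Cdh1, which encodes E-cadherin, the core of the adherens junction, lay between -0.47 and -0.33 (median -0.44), and the surface glycoprotein Epcam between -0.15 and 0.14 (median 0.03). Neither passed on any array, and each has 1 probe. Prss8, a membrane protease picked after its values were seen, passed on all arrays with a median of 0.36. The claudins of epithelial tight junctions gave weak or no signal: Cldn3 ranged from 0.31 to 0.70 (median 0.61) and passed on all arrays, Cldn4 passed on 4 (median 0.25) and Cldn7 on 3 (median 0.17), and occludin, Ocln, passed on 1 (median 0.11).

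Regulators and desmosome genes of the same list, picked for naming after their values were seen, followed the junction genes. The splicing factors Esrp1 (-0.18 to 0.04, median -0.04) and Esrp2 (0.00 to 0.28, median 0.11), which set epithelial exon choice, passed on no array. The factors Grhl1, Ovol2, Elf3 and Ehf also passed on none, and Grhl2 passed on 1 array with a median of 0.15. The desmosomal plaque genes Dsp (median 0.10) and Jup (median -0.19) were not above background, while the plaque gene Pkp3 was, at 0.81 to 1.09 (median 0.87).

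Keratins of simple epithelia were the exception on this list. Krt8 ranged from 5.02 to 5.75 (median 5.54), and its filament partner Krt18 from 4.78 to 5.52 (median 4.99). Krt19, another simple epithelial keratin, was at 1.37 to 1.94 (median 1.76), and Krt7, of ducts and glands, passed on 2 arrays only (0.11 to 0.69, median 0.18). Krt8 and Krt18 thus stood above background by more than 4 log2 units on every array. In the whole keratin family 9 of 46 genes were above background on all arrays (19.6%, against 49.3% of all genes), and 7 at the receptor level, with Krt10 (median 1.30), Krt33b (median 0.97) and Krt13 (median 0.74) next.

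**Figure D3:**
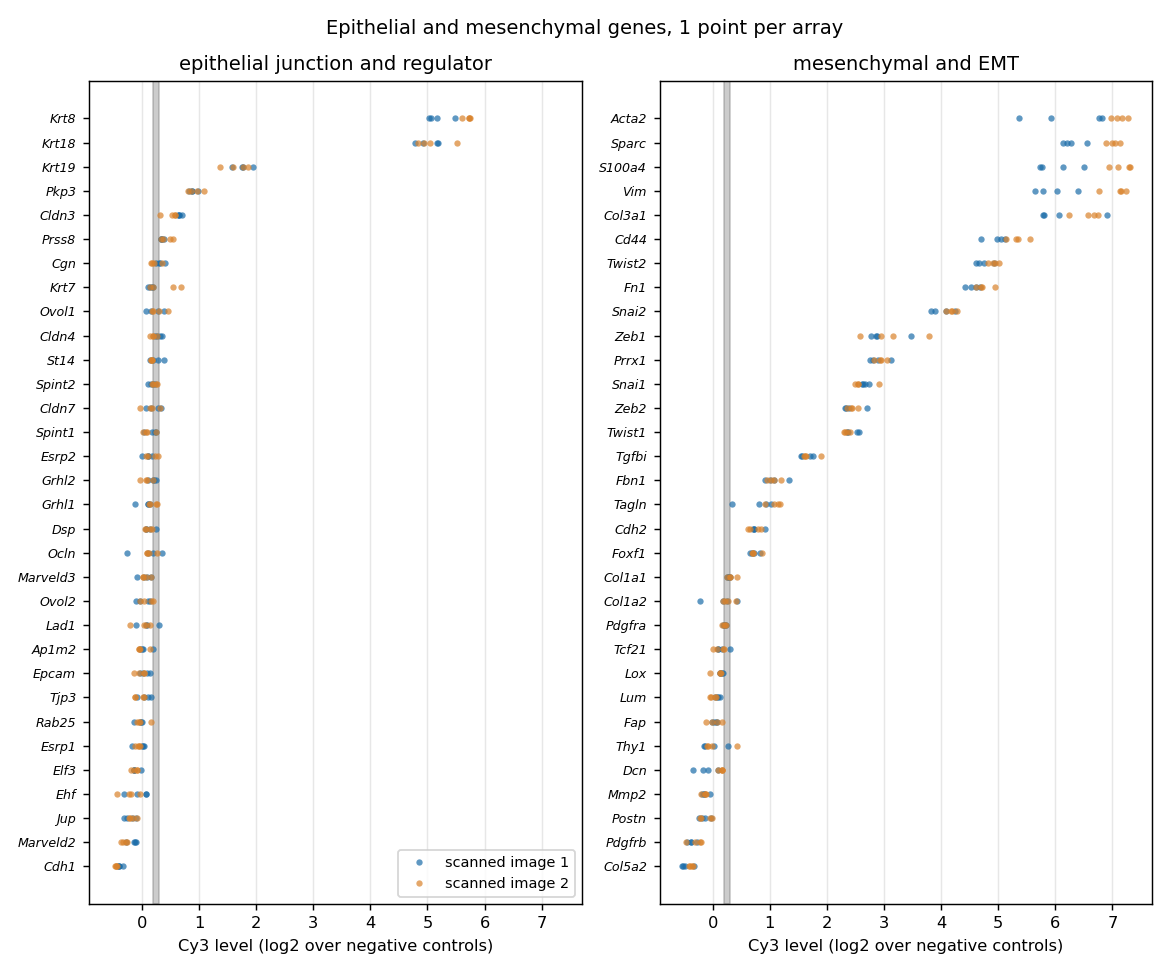
Cy3 level (x axis, log2 over the median negative control) of each gene of the epithelial (left) and mesenchymal (right) lists, with 1 point per array coloured by scanned image and a grey band over the detection thresholds of 0.198 to 0.294. Most epithelial genes lie at the band or below it apart from Krt8, Krt18 and Krt19, while Vim, Sparc, S100a4 and Acta2 lie above a level of 5 on every array.

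Mesenchymal and EMT genes were detected more often than epithelial ones where 1 probe of a gene sufficed. Of 32 genes 19 were above background on all arrays (59.4%, against 49.3% of all genes), 5 were mixed and 8 were not above it, with a median level of 1.00 against 0.40 over all genes. At the receptor level 18 were above on all arrays. Where every probe of a gene had to pass, the count was 8 (25%), below the 34.2% of all genes under that rule, and the epithelial count was 6 (18.8%). Since the list was chosen with earlier results of these data known, its share is a description and not a test.

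The transcription factors of this list mostly had clear signal, and all but Zeb1 and Snai2 were picked for naming after their values were seen. Snai2, which encodes Slug, ranged from 3.82 to 4.28 (median 4.13) and its relative Snai1 from 2.50 to 2.92 (median 2.63). Zeb1 ranged from 2.58 to 3.78 (median 2.91), with 1 of 2 probes above background, and Zeb2 from 2.31 to 2.71 (median 2.41), with 2 of 5. Twist1 (2.30 to 2.57, median 2.36), Twist2 (4.61 to 5.01, median 4.87) and the homeobox gene Prrx1 (2.76 to 3.12, median 2.91) were also above background on every array. Foxf1, a factor of lung mesenchyme, was at 0.66 to 0.87 (median 0.71), and Tcf21, another, passed on 1 array (median 0.13).

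Vim, the intermediate filament vimentin, ranged from 5.65 to 7.24 (median 6.58), with 1 of 2 probes above background. Cdh2, which encodes N-cadherin, ranged from 0.62 to 0.91 (median 0.73), with 1 of 3 probes above background. Both genes passed on every array. Picked after their values were seen, smooth muscle actin Acta2 ranged from 5.36 to 7.27 (median 6.89), the matrix protein Sparc from 6.14 to 7.14 (median 6.72), fibronectin Fn1 from 4.41 to 4.94 (median 4.65), the calcium-binding S100a4 from 5.74 to 7.31 (median 6.73) and the hyaluronan receptor Cd44 from 4.70 to 5.56 (median 5.12).

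Fibroblast genes of the same list were mostly at background. Col1a1 and Col1a2, the chains of type I collagen that fibroblasts secrete, passed on 6 and 4 arrays with medians of 0.30 and 0.24, and Col5a2 passed on none (-0.54 to -0.33, median -0.41). The growth factor receptors Pdgfra and Pdgfrb had medians of 0.21 and -0.34 and passed on 2 arrays and on none, and the surface marker Thy1 passed on 2 (median -0.05). Picked after their values were seen, Postn, Lox, Mmp2, Dcn, Lum and Fap, all genes of activated or matrix-forming fibroblasts, passed on no array. Col3a1, of type III collagen, went against this group at 5.78 to 6.91 (median 6.40), with 2 of 3 probes above background.

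Promoters of the lists were compared with the E-box that the Snail and Zeb factors bind, searched as CACCTG on either strand (CACCTG or CAGGTG). The sequences come from RefSeq (GRCm38.p6) and run from 250 bases before to 50 after each annotated start, and 15783 of the 21121 genes had one. The motif occurred in 20% of all 27025 promoters in the table, which include genes not on the arrays. It occurred in 16% of promoters of genes above background on all arrays and in 21.9% of those not above it. On the epithelial list 14 of 21 promoters held it (66.7%), and on the mesenchymal list 2 of 17 (11.8%). By detection, within the epithelial list, it occurred in all 3 promoters of genes above background, in 3 of 6 mixed and in 8 of 12 not above it. Promoters of Epcam (2 matches, not above background), Cldn4 (2 matches, mixed), Krt8 (1 match, above background) and Vim (0 matches, above background) are shown because they span these cases, with matches in capitals, 5′ to 3′ on the strand of the gene. They lie at chr17:87635729-87636028 (plus strand), chr5:134946885-134947184 (minus strand), chr15:102004293-102004592 (minus strand) and chr2:13574061-13574360 (plus strand). A match describes the letters and does not show that a factor binds there.
Epcam: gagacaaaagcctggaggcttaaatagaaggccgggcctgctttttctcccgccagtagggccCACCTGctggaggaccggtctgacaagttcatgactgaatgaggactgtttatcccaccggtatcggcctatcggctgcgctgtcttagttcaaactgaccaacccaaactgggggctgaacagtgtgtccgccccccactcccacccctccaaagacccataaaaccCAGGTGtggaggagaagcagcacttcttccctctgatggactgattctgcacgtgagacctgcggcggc
Cldn4: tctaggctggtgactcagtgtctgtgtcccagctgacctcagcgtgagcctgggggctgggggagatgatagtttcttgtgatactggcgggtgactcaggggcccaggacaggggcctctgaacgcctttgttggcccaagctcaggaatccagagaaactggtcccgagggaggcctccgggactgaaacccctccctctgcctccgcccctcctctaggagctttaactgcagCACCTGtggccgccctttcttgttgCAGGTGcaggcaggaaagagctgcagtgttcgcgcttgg
Krt8: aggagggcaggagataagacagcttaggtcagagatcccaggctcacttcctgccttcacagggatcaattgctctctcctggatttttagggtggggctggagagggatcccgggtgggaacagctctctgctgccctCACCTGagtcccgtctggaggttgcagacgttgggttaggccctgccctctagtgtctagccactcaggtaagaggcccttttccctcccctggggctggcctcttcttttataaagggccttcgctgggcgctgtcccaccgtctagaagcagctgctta
Vim: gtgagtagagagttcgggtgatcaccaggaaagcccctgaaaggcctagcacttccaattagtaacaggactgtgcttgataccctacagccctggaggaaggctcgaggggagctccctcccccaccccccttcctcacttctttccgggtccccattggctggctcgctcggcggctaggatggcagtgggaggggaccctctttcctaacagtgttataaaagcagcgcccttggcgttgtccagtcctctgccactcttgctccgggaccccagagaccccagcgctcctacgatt

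Promoter composition differed between the detection groups as a whole. A ratio of observed to expected CpG pairs of at least 0.6, the usual mark of a CpG island, was found in 76.1% of 8302 promoters of genes above background on all arrays, in 36.1% of 2409 mixed and in 24.3% of 5072 not above it, or 28% without the chemosensory receptors. The share over all 27025 promoters in the table was 36.5%, but these include promoters of genes not on the arrays. It is therefore not the share over the measured genes. The letters TATAAA between 50 and 10 bases before the start occurred in 1.47% of promoters of genes above background and in 4.79% of those not above it. These are counts over genes, which are not independent replicates.

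Where every probe of a gene had to pass, counts in the adhesion and matrix families were lower: 0 cadherins, 6 integrins (23.1%) and 6 collagens (13.6%). The share of all genes was 34.2% under that rule and 49.3% with 1 probe sufficing. With 1 probe sufficing, of 23 cadherins 3 were above background on all arrays: Cdh13 (2.10 to 2.62, median 2.37), Cdh11 (1.78 to 2.38, median 1.96), known from mesenchymal cells, and Cdh2. Of 21 claudins 4 were, Cldn12 (2.12 to 2.49, median 2.28), Cldn14 (median 0.95), Cldn9 (median 0.69) and Cldn3. Integrins were above background for 11 of 26 genes (42.3%), among them the laminin receptor chain Itga6 (5.01 to 5.65, median 5.35), the common partner Itgb1 (3.77 to 4.05, median 3.86), Itgb5 (median 3.52) and Itgav (median 2.93), chains of vitronectin receptors, and Itga3 (median 2.46). Itgb7, best known from leukocytes, was at 5.19 to 5.93 (median 5.47) on its 1 probe.

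Collagens were above background for 15 of 44 genes (34.1%, against 49.3% of all genes). Beside Col3a1, those named by rule were the basement membrane chain Col4a1 (5.37 to 5.72, median 5.65), Col8a1 (5.20 to 5.70, median 5.53), Col18a1 (4.33 to 5.26, median 4.82), Col5a1 (4.63 to 5.10, median 4.78) and Col16a1 (3.89 to 4.58, median 4.17). Chains that assemble together were not always both detected: Col5a1 was above background while Col5a2 was not.

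Hox genes give cells a position along the body axis, and their clusters are switched on in an order that follows gene number. Of 38 measured Hox genes 19 were above background on all arrays, close to the 49.3% of all genes, and 14 (36.8%) at the receptor level. By cluster the counts were 9 of 11 Hoxa, 5 of 10 Hoxb, 1 of 8 Hoxc and 4 of 9 Hoxd genes, or 5, 4, 1 and 4 at the receptor level. By number they were 16 of 27 genes numbered 1 to 9 and 3 of 11 numbered 10 to 13. Hoxd9 (2.86 to 3.18, median 2.92) and Hoxd10 (2.75 to 3.21, median 2.95) were above background together with Hoxd8 (median 1.49) and Hoxd4, while Hoxd1, Hoxd3, Hoxd11, Hoxd12 and Hoxd13 passed on no array. Hoxa7 ranged from 1.18 to 1.87 (median 1.62), and Hoxb2 and Hoxb7 had medians of 1.46 and 1.33. In the Hoxc cluster Hoxc4 alone was above background on all arrays, with a median of 1.21. Hox genes beyond the 6 with the highest level were picked after their values were seen.

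**Figure D4:**
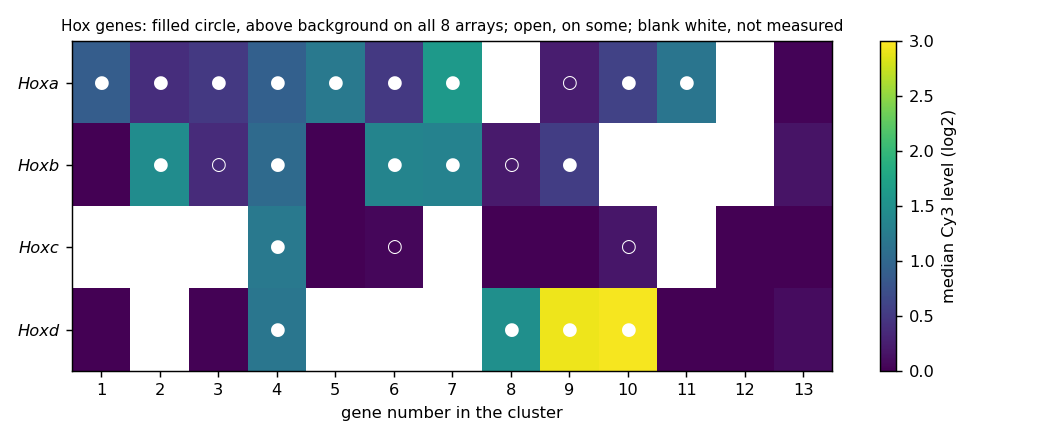
Median Cy3 level (colour, log2 over the median negative control) of each measured Hox gene by cluster (rows) and number (columns), with filled circles for genes above background on all 8 arrays, open circles for mixed genes and white cells for genes not measured. The levels rise to 2.92 for Hoxd9 and 2.95 for Hoxd10, and 1 of 8 Hoxc genes has a filled circle.

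Markers of other cell types were then read, to describe what else the RNA of these cultures held. In bulk RNA, fewer cells of a type and less RNA per cell cannot be told apart. Leukocyte-defining genes were at background: Ptprc (CD45) ranged from -0.12 to 0.11 (median 0.01), with none of its 4 probes above it, and the macrophage receptor Csf1r and the myeloid factor Spi1 passed on no array. Of 19 myeloid genes 4 were above background on all arrays, the endotoxin coreceptor Cd14 (3.03 to 3.52, median 3.24), the lysosomal Cd68 (1.04 to 1.50, median 1.19), C1qb (0.60 to 0.81, median 0.73) and Fcer1g (median 0.54), while C1qa and C1qc, the partners of C1qb picked after their values were seen, passed on none. Of 20 lymphoid genes 3 passed the negative controls on all arrays, Cd3e (median 0.45), Cd79b (median 0.35) and Cd4 (median 0.48), and 0 passed the receptor level on all arrays.

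Endothelial and erythroid markers were also mostly at background. Pecam1, Erg, Emcn, Vwf and Sox18, which mark vessel endothelium, passed on no array, and 3 of 15 endothelial genes were above background on all arrays. These were the secreted Egfl7 (3.79 to 4.35, median 4.03), the VEGF receptor Flt1 (1.66 to 2.24, median 1.85) and Plvap (0.72 to 1.01, median 0.85). Of 10 erythroid genes the anion exchanger Slc4a1 (median 0.55) and the erythropoietin receptor Epor (0.55 to 0.74, median 0.65) were above background, and Epor alone at the receptor level.

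Programmes of distant lineages gave low counts with a few clear signals. Against the negative controls on all arrays, 3 of 16 muscle genes, 6 of 18 neuron and glia genes, 1 of 15 hepatocyte genes, 0 of 9 melanocyte genes, 2 of 18 germ line genes, 5 of 13 pluripotency genes and 5 of 15 bone and cartilage genes were above background. At the receptor level the counts were 1, 5, 0, 0, 1, 1 and 4. The germ line gene was Prm1, a protamine of sperm chromatin (median 1.30), and Tat, the hepatocyte gene, had a median of 0.50. Nes, the intermediate filament nestin of neural progenitors, picked after its values were seen, ranged from 5.09 to 5.56 (median 5.32), and Syn1, a coat protein of synaptic vesicles, from 5.28 to 6.07 (median 5.59) with both of its probes above background. Tubb3 (2.22 to 2.45, median 2.32), Nefl (1.64 to 1.99, median 1.80) and Mbp (1.47 to 1.74, median 1.62) were also above background, while Gfap passed on no array and Map2 on 1. The neuronal genes Rbfox3 and Snap25, picked after their values were seen, passed on no array.

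Bone-related Spp1, the secreted glycoprotein osteopontin, was among the 20 genes of highest signal described below, at 6.31 to 7.20 (median 7.02). Its list partners Runx2, the osteoblast factor (2.12 to 2.45, median 2.22), Sox9 and the cartilage collagen Col2a1 (1.01 to 1.27, median 1.10) were above background, and Acan passed the receptor level on some arrays only (median 0.51). Bglap, the osteocalcin gene, passed on 1 array (median 0.02), and Sp7 on 7 (median 0.41). Actc1, cardiac actin, was the only muscle gene above the receptor level on all arrays (1.20 to 1.55, median 1.45), and Myod1 and Myog passed on no array. Among pluripotency genes Klf4, which many tissues use, was at 2.90 to 3.32 (median 3.04), Pou5f1 was at 0.26 to 0.47 (median 0.32), below the receptor level on some arrays, and Nanog passed on none.

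The order of genes by mean Cy3 signal depends on probes as well as on RNA. The 20 highest, with cytosolic and mitochondrial ribosomal proteins and clone or predicted names left out, had varied roles. They included the polyamine enzymes Odc1 (6.17 to 7.22, median 6.83) and Srm (6.11 to 7.21, median 6.89), the translation factors Eif4a1 (median 6.91) and Eif3b (median 6.77), nucleolin Ncl (6.45 to 7.54, median 7.04), the clamp Pcna (6.11 to 7.22, median 6.73) and the chaperonin Hspd1 (median 6.89). The mitochondrial genome gave ATP6 (6.76 to 7.42, median 7.29), CYTB (median 7.02), ND4 (median 6.90) and COX2 (median 7.18). Others were the splicing genes Srsf2 (median 7.06) and Hnrnpf (median 6.77), Anp32b (median 6.80), the annexins Anxa1 (median 6.83) and Anxa5 (median 6.94), the focal adhesion protein Zyx (median 6.77), Spp1 and histone gene H2ac15 (median 6.98), whose near-identical copies a probe cannot separate. Of the 20 genes, 11 had a spot at the ceiling on 1 to 5 arrays (ATP6, Anp32b, Pcna, Spp1, Hspd1, Srsf2, Ncl, Anxa5, COX2, Eif4a1 and Zyx), and so did Rhox5 and Acta2 on 2 arrays and S100a4 and Mif on 1. The highest values of these genes are lower bounds.

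Hmga2 was among these 20 as well. It encodes a chromatin protein of embryonic tissue that is silent in most adult cells and returns in many cancers, and it ranged from 6.12 to 7.27 (median 6.65) with all 3 probes above background. Picked after their values were seen, Rhox5, a homeobox gene of the reproductive tract, ranged from 5.63 to 7.35 (median 6.92), and the hair keratin-associated genes Krtap4-6 and Krtap19-1 from 5.31 to 6.25 (median 6.06) and from 3.30 to 3.67 (median 3.57). In that family 8 of 43 genes were above background on all arrays, and its members are similar enough in sequence that a probe may read more than 1. Of 14 lens crystallins 3 passed on all arrays and 0 at the receptor level, and of 28 beta defensins 1 passed at both.

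Of 29 oncogenes and tumour suppressors 24 were above background on all arrays (82.8%, against 49.3% of all genes), and 17 where every probe had to pass (58.6%, against 34.2%). Trp53, which encodes p53, ranged from 4.78 to 5.35 (median 5.07) and the growth factor-induced Myc from 5.37 to 6.37 (median 5.84). Its relatives Mycn and Mycl passed on 1 array and on none, with medians of -0.02 and 0.13. The telomerase gene Tert passed on 7 arrays (0.27 to 0.64, median 0.53). The suppressors Stk11 (median 2.58), Keap1 (median 4.25) and Rb1 (1.04 to 1.22, median 1.15), picked after their values were seen, passed on every array.

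Cdkn2a and Cdkn2b, neighbouring genes for inhibitors of cyclin-dependent kinases, were the only suppressors of the list that passed on no array. Cdkn2a ranged from -0.61 to -0.49 (median -0.52) and Cdkn2b from -0.27 to 0.02 (median -0.20), each on 1 probe. The genes next to them were examined after this was seen. In gene order by the RefSeq table, Mtap on 1 side was at 4.61 to 5.23 (median 4.73), and on the other side Dmrta1, Zfp352, Elavl2, Izumo3 and Tusc1 passed on no array, followed by Caap1 (median 1.36) and Plaa (median 2.94) above background. Beyond Mtap lie interferon genes, of which Ifna5, Ifna4 and Ifne passed on no array and Ifna7 on all, at 0.61 to 0.81 (median 0.74). Expression arrays do not measure gene copies, and Izumo3, for example, is a gene of sperm.

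Receptor tyrosine kinases were above background for 16 of 34 genes (47.1%, near the 49.3% of all genes). Where every probe had to pass the count was 8 (23.5%, against 34.2% of all genes). Of the first 4 of the list, Axl ranged from 3.27 to 3.74 (median 3.42), Met, the receptor of hepatocyte growth factor, from 2.92 to 3.38 (median 3.03), Egfr from 1.49 to 1.86 (median 1.61) and Erbb2 from 1.35 to 1.50 (median 1.42). All 4 passed on every array, while Erbb3 passed on 3 (median 0.20). Kit, Ret and Alk passed on no array, and Fgfr2, a receptor of many epithelia, passed on none with its 3 probes. Of the rest, picked after their values were seen, Epha2 (4.32 to 5.04, median 4.84), the collagen receptor Ddr2 (4.05 to 4.53, median 4.27) and Fgfr1 (2.29 to 2.75, median 2.45) were above background.

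Class I antigen presentation displays peptides from inside the cell to CD8 T cells, and class II presentation is typical of professional antigen-presenting cells. Of 17 class I genes 13 were above background on all arrays (76.5%, against 49.3% of all genes), with a median level of 3.91. The light chain B2m ranged from 5.00 to 5.88 (median 5.60), and the heavy chains H2-D1 from 4.74 to 5.48 (median 5.16) and H2-K1 from 4.35 to 4.63 (median 4.46), genes whose probes may cross with near relatives of the H2 family. The peptide transporter genes stood apart from these: Tap1 passed on 5 arrays (0.00 to 0.53, median 0.32) and Tap2 on 7 (0.26 to 0.51, median 0.33). The immunoproteasome gene Psmb8 passed on 7 arrays (median 0.47), and Nlrc5, the transactivator of class I genes, on none (median 0.10).

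Of 10 class II genes 2 were above background, the peptide exchange chains H2-DMa (0.99 to 1.28, median 1.17) and H2-DMb1 (0.90 to 1.03, median 0.95). H2-Aa passed on no array, H2-Ab1 and the invariant chain Cd74 on 3 (medians 0.25 and 0.27), and the class II transactivator Ciita on 1 (median 0.17).

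Ligands of immune checkpoints and signals against phagocytosis were above background for 9 of 22 measured genes (40.9%, against 49.3% of all genes). Cd47, which tells macrophages not to engulf a cell, ranged from 4.65 to 5.18 (median 4.98) with all 4 probes above background, and Cd276, a member of the B7 family, from 2.14 to 2.52 (median 2.34). Cd274, which encodes PD-L1, passed on 3 arrays (0.03 to 0.30, median 0.19), and Pdcd1lg2, Vtcn1, Cd80 and Cd86 passed on none. The known ligands of PD-1 were thus at or near background in untreated cells while Cd47 was not. Picked after their values were seen, the poliovirus receptor Pvr was at 4.18 to 4.47 (median 4.32), galectin Lgals3 at 5.45 to 6.61 (median 6.37) and the NKG2D ligand Raet1e at 2.25 to 2.70 (median 2.32). Tnfsf4 passed on 1 array only, where a single spot reached 6.06 against a median of -0.02.

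Chemokines, cytokines and growth factors were above background for 20 of 38 measured genes (52.6%), near the 49.3% of all genes. Ccl2, which recruits monocytes, ranged from 5.32 to 6.75 (median 6.32), Csf1, the growth factor of macrophages, from 4.42 to 5.58 (median 5.26), and Cxcl1, a neutrophil chemokine, from 1.60 to 2.04 (median 1.88). Ccl5, Cxcl12 and Cxcl16 passed on no array, and Cxcl10, an interferon-induced chemokine, passed on 5 (0.07 to 0.39, median 0.25). Among genes picked after their values were seen, Mif (median 6.83), Ccl7 (median 3.95), Pdgfa (median 3.92), Fgf7 (median 3.28), Hbegf (median 3.02) and Il11 (median 2.94) were above background on every array. Csf2, Csf3, Il6, Il1a and Il1b passed on none.

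Of 24 genes that sense pathogens and foreign or misplaced nucleic acid, or signal for such sensors, 10 were above background on all arrays, 2 were mixed and 12 were not above it. The share of 41.7% was near the 49.3% of all genes. Where every probe had to pass the count was again 10 (41.7%, against 34.2% of all genes). Cgas, the enzyme that senses cytosolic DNA, passed on no array (-0.73 to -0.01, median -0.36), while Sting1, which acts directly downstream of it, ranged from 3.99 to 4.37 (median 4.23). In the RNA-sensing arm, Ddx58 (RIG-I, -0.14 to 0.04, median -0.03) and Ifih1 (MDA5, -0.60 to -0.31, median -0.45) passed on no array, while their adaptor Mavs ranged from 2.88 to 3.18 (median 3.08). Both arms therefore had a detected adaptor beside sensors not above background. Aim2, Zbp1 and Nlrp3, further sensors picked after their values were seen, passed on no array.

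Among Toll-like receptors Tlr9, which recognises unmethylated CpG DNA, was the only one of 8 listed above background on all arrays, at 2.64 to 3.10 (median 2.95), Tlr4 passed on 5 arrays (median 0.31), and Tlr1, Tlr2, Tlr3, Tlr5, Tlr6 and Tlr7 passed on none. Their adaptors Myd88 (3.35 to 3.71, median 3.44) and Ticam1 (1.02 to 1.45, median 1.17) and the factor Irf3 (2.92 to 3.52, median 3.37) passed on all arrays. Irf7, which interferon induces, passed on 5 (median 0.27). The interferon receptor chains Ifnar1 (median 2.68), Ifnar2 (median 2.89), Ifngr1 (median 3.06) and Ifngr2 (median 4.14) were all above background. Of the genes in this paragraph, Tlr1 to Tlr7 without Tlr4, Irf7 and the interferon receptors were picked after their values were seen.

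Xist, the RNA that silences an X chromosome, was weakly above background, at 0.52 to 0.99 (median 0.67), with 3 of 4 probes above it. Of 8 Y-linked genes Ddx3y, Eif2s3y, Kdm5d and, picked after their values were seen, Uty, Usp9y, Zfy2 and Sry passed on no array, and Zfy1 passed the negative controls on all arrays and the receptor level on some (0.29 to 0.51, median 0.35).

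The untreated channel of 10Gy replicate 1 stood apart in what it expressed, after quantile normalization across arrays. Of the 10412 genes above background on all arrays, this sample was the lowest of the 8 for 1912 (18.4%) and the highest for 2887 (27.7%), against 926 to 1397 genes at either end in any other sample. It differed by at least 2-fold from the median of the others for 111 genes, against 5 to 19 genes in each other sample. Ribosomal protein genes were the lowest of the 8 there for 36 of 40 members, with a median of -1.29 log2 against the median of the others, while proliferation genes were the highest for 20 of 30 (median 0.27) and proteasome subunits for 17 of 31 (median 0.22). The other samples had ribosomal medians of -0.245 to 0.16.

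Targets of p53, a list made after the values were seen, were lower in the same sample. It was the lowest of the 8 for 13 of the 22 targets above background and the highest for 3. Cdkn1a, the cell cycle inhibitor p21, stood at 2.66 there and at 4.58 to 4.83 in the others, Phlda3 at 3.52 against 5.61 to 6.27, and the apoptosis gene Bax at 4.02 against 5.04 to 5.27. Among genes higher there were the mitotic genes Ccna2 (6.64 against 5.31 to 5.89) and Birc5 (6.74 against 5.43 to 5.89) and the sterol enzyme Sqle (6.41 against 4.89 to 5.66). For these genes the range of the other 7 samples did not include this sample. With 1 sample there is no test, and whether culture, RNA or labelling differed cannot be told apart. Among lineage lists, the mesenchymal genes had a median of 0.04 there, the epithelial genes -0.03 and the pluripotency genes -0.18, with 3 of 5 lowest. With this array left out, the mesenchymal and epithelial counts above background were 19 and 6 as before, while basal genes went from 1 to 2, type 1 from 6 to 7, club cell from 3 to 4, and pluripotency and bone genes each from 5 to 6.

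**Figure D5:**
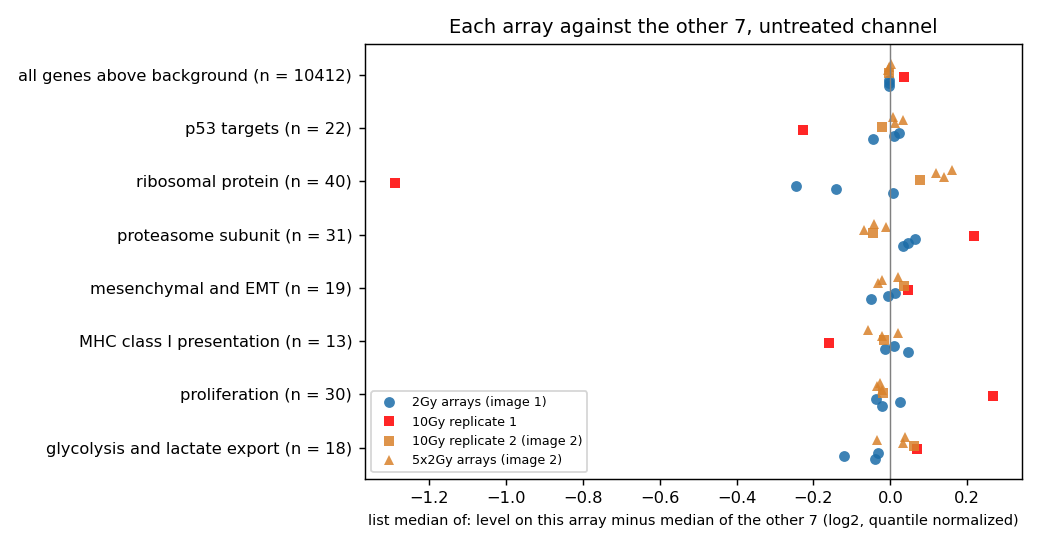
Median over the genes of each list (rows, number above background in brackets) of the level on an array minus the median of the other 7 arrays (x axis, log2, quantile normalized), with 1 point per array and the array of 10Gy replicate 1 in red. That array lies at -1.29 for ribosomal proteins, -0.23 for p53 targets and 0.27 for proliferation, and the others lie within 0.25 of 0 in every list. The list of p53 targets was made after the values were seen, so its row is a description and not separate evidence.

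Differences between the scanned images, the partner regimens and the replicate numbers were tested with limma on 11852 genes above background on at least 4 arrays, after quantile normalization. Between images 23 genes passed at an adjusted p of 0.05 (0.194%), 12 higher and 11 lower on image 2, and 8 of them by at least 2-fold, with 1368 at an unadjusted p under 0.05. Among the largest were a ferritin light chain copy Ftl2-ps (higher on image 2 by 1.99 ± 0.29 SE log2, limma adjusted p = 0.033), the ribosomal protein genes Rpl29 (1.44 ± 0.22, adjusted p = 0.040), Rpl41 (1.25 ± 0.18, adjusted p = 0.033) and Rpl12 (1.20 ± 0.16, adjusted p = 0.028), and galectin Lgals1 (1.21 ± 0.13, adjusted p = 0.024). The array of 10Gy replicate 1, where 36 of 40 ribosomal protein genes were lowest, lies on image 1. Image 2 minus image 1 was -0.67 ± 0.10 for the splicing factor Srsf1 (adjusted p = 0.040) and -0.59 ± 0.08 for the proteasome subunit Psmd7 (adjusted p = 0.024). Each of the 12 genes with the largest change per direction had a mean log2 signal of 12.9 or more on either image, at the bright end where the images differ in scale, and the part of this in the result was not tested. The count went to 96 without the array of 10Gy replicate 1, to 52 without that of 2Gy replicate 1, to 21 without that of 2Gy replicate 2, and to 0 or 1 without any other single array.

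Between partner regimens, which the untreated cells never received, 4 genes passed (0.0337%): H2aj, Rpl15, Rpl9 and Rps21, each at a limma adjusted p of 0.028, with 1647 at an unadjusted p under 0.05. Rpl9 was at 5.44 to 5.76 on the 10Gy arrays and at 6.46 to 6.76 on the others, while H2aj was at 6.51 to 6.81 on the 10Gy and 5x2Gy arrays and at 5.81 to 5.98 on the 2Gy arrays. Regimen and image overlap in this design, since image 1 held every 2Gy array and image 2 every 5x2Gy array. The count was 78 without the array of 10Gy replicate 1, 1637 without that of 10Gy replicate 2, 2 without 2Gy replicate 3 and 0 without any other single array. Between replicate numbers 0 genes passed (0.0%), by limma, with 224 at an unadjusted p under 0.05, and 2 passed without the array of 5x2Gy replicate 3.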

How the data were processed

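Dual-colour expression arrays of 8 LLC1 samples were read in the Cy3 channel only. Values were raw spot intensity, as deposited by the authors: the file headers name ImaGene 9.0 as quantification software and give mean and median pixel signals without background subtraction or normalization. Every mean signal was used as log2. Probes were named through their accession (27814 probes), the array's own current symbol (6697) or a synonym (352), 81 matched several genes and 6230 had no name here. A gene took its probe with the highest mean. Levels were set against the negative controls of each array, and the 95th percentile of chemosensory receptor probes and the 99th percentile of negative controls served as other thresholds. Other alternatives were 5 robust SD, median pixels, flagged spots left out, each image alone, every probe of a gene and at least 4 arrays. The authors' flag values were not explained in the sources used here. Differences between arrays were tested with limma on quantile-normalized log2 intensity, with Benjamini-Hochberg adjustment. The fit between images alone was run on simulated data, with noise drawn independently for each gene and array. The simulated data held no array that stood apart, so they cannot show how far the fits depend on a single array. The alternatives to the limma fits were normexp correction with the negative controls (offset 50), median centring, no filter, replicate or image blocks, and each array left out.

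Named genes were the first 4 measured of each of 32 lists, members above background (or not) where 5 or fewer, up to 6 whose state differed from most of their list, up to 6 of the keratin, cadherin, claudin, integrin, collagen and Hox families with the highest level, the 20 genes of highest signal outside ribosomal proteins, and up to 6 called genes per direction of each test; other names are said to be picked after their values were seen. For the 20 genes of highest signal, mitochondrial ribosomal proteins and clone or predicted names were left out as well. The lists and families were chosen with earlier results of these data known. Python 3.11.15, numpy 2.4.6, pandas 2.3.3, R 4.3.3 and limma 3.58.1 were used. The number of arrays limits the precision. Between arrays on different images, no sign of pairing by replicate number was seen. Deviations from the mean of the image correlated there at -0.156 to 0.057 with the same number (5 pairs) and at -0.132 to 0.136 otherwise (11 pairs). Since array noise also enters these deviations, 5 pairs cannot tell whether samples of 1 number shared a culture. Taking deviations from the image mean pulls pairs on 1 image towards negative values, so such pairs cannot decide whether numbers pair the arrays. They correlated at -0.60 and -0.503 with the same number and at -0.665 to 0.139 otherwise. A further replicate of the 10Gy regimen, implied by the labels, was not analysed here. Results for some listed genes are not reported here.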

Additional observations from a re-analysis of the deposited data

Results flagged for a closer look

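Of 200 named genes above background on all arrays, 11 had 1 array apart from the other 7 by Dixon's criterion, which chance alone meets in about 1 of 20 groups. On the array of 10Gy replicate 1, Csf1 stood at 4.42 (others 5.06 to 5.58), Irf3 at 2.92 (others 3.29 to 3.52), Bax at 4.09 (others 4.88 to 5.48), Cdkn1a at 2.79 (others 4.52 to 4.87) and Phlda3 at 3.62 (others 5.46 to 6.32). The last 3 were named because they stood apart there, and these levels are before quantile normalization. On the array of 10Gy replicate 2, Nkx2-2 stood at 1.84 (others 1.48 to 1.63), Myd88 at 3.71 (others 3.35 to 3.48), Hoxb2 at 1.69 (others 1.31 to 1.48) and Raet1e at 2.70 (others 2.25 to 2.40). Mavs was low on the array of 5x2Gy replicate 3, at 2.88 (others 3.04 to 3.18), and Cldn3 on that of 5x2Gy replicate 2, at 0.31 (others 0.53 to 0.70).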

How the results depend on the processing

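Genes above background numbered 10412, and 7215 to 11857 over the other detection settings, the fewest where every probe of a gene had to pass and the most where 4 arrays sufficed. Of 440 recomputed list and family counts 361 stayed within 1.5 times the main count and 79 moved, and of 400 recomputed levels of named genes 355 stayed within the spread of the arrays and 45 moved. The mesenchymal count of 19 fell to 8 where every probe had to pass. The count of genes that differed between images, 23, was 0 after normexp correction, 801 after median centring, 1 with the replicate block and 0 to 96 with 1 array left out. The count between partner regimens, 4, was 0 after normexp correction, 993 after median centring, 0 with the replicate block, 1134 with the image as a block and 0 to 1637 with 1 array left out. The count between replicate numbers, 0, was 0 to 2 with 1 array left out. The cause of these moves was not tested. Without the array of 10Gy replicate 1, an alternative chosen after seeing the data, the mesenchymal, epithelial, type 2 and proliferation counts were 19, 6, 4 and 30, as with it.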
